A study of Mus musculus with 24 samples.

Results

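RNA of the retinal pigment epithelium of Per mutant mice was compared with that of wild type mice at CT10, late in the subjective day. The comparison rests on the 6 libraries whose titles carry that time, 3 per genotype, of the 24 in the series. The other 18 are the other circadian times (CT19, CT22 and CT1, again 3 libraries per genotype and time). They were fitted together with these 6, and so also enter the filter and the estimate of spread behind the CT10 p-values. The mutant mice are labelled Per1-/-Per2Brdm1 and the controls WT. All were males 6 weeks old on the strain background C57BL/6/J x 129 SvEvBrd, and that mixed background is shared by both genotypes. The epithelium was cut out of snap-frozen eyes by laser capture microdissection. Mutant replicate 3and5 was pooled from 2 eyes, and the other 5 libraries came from 1 eye each. The titles carry numbers and the letter L, but the labels do not say whether each number is a separate animal. P-values therefore rest on library-to-library spread, which may be partly technical. The series asks whether Per1 and Per2 set the daily rhythm with which this epithelium takes up shed photoreceptor outer segments.

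In the mammalian clock, CLOCK and BMAL1 (gene Arntl) bind E-box sequences and drive Per, Cry, Nr1d1, Dbp and other genes. PER and CRY proteins then repress CLOCK and BMAL1, and the REV-ERB proteins (Nr1d1, Nr1d2) repress Arntl and Nfil3. Dbp, Tef and Hlf activate D-box sequences, which NFIL3 represses. The retinal pigment epithelium carries such a clock and is known for the visual cycle, for melanin and for a daily burst of outer segment uptake.

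The 6 libraries held 20317648 to 24635163 counts, and the genotypes overlapped in depth. Levels below are CPM, a gene's counts relative to the TMM-scaled size of its library, given for wild type replicates 1, 2 and 4 and then for mutant replicates 2, 3and5 and 4. Differences are fitted log2 fold changes, mutant minus wild type, from edgeR's quasi-likelihood test. Their standard error (SE) was back-calculated, as the absolute log2 fold change over the square root of the test's F statistic. The threshold was 0.05 for the Benjamini-Hochberg adjusted p, taken across 20275 genes. More genes were detected in the mutant libraries (23558 to 23895) than in the wild type libraries (19824 to 22167). Wild type replicate 4 stood apart, with 19824 genes detected and a correlation across genes of 0.971 with each of the other wild type libraries. Those correlated with each other at 0.981, and the mutant libraries at 0.985 to 0.986. Where leaving out this library ended a call or moved a list median by over 1.5 times, the value without it, or its place in the range over the omissions, is given beside the result.

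The epithelium's own markers were abundant in both genotypes. The 32 genes of the RPE identity list summed to 38640 to 52320 CPM in wild type and 51650 to 66590 CPM in mutant libraries. RNA of neighbouring cells was present too. Rod markers, 21 genes, summed to 32930 to 51690 CPM in wild type and 40770 to 65280 CPM in mutant libraries. None of the 12 marker lists of other cell types had a member past the threshold at CT10 by edgeR. In these bulk samples, fewer cells of a type and less RNA per cell cannot be told apart.

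Over the whole transcriptome, 3 genes were higher and 4 lower in the mutant than in the wild type epithelium at CT10. These are 0.0148% and 0.0197% of the genes tested. The higher genes were Rasl10b, Cbln2 and Gm15348. The lower genes were 2610507I01Rik, Unc45b, Tspoap1 and Car11. None is a core clock gene. At an unadjusted p under 0.05, 2176 genes (10.7%) were higher and 1444 (7.12%) lower. All 3 mutant libraries lay above all 3 wild type libraries for 3598 genes (17.7%) and below them for 2516 (12.4%). Of the 11617 genes at a mean of at least 5 CPM over these 6 libraries, 1815 were higher and 1179 lower at that unadjusted p. Of the same 11617 genes, 2807 lay above and 1658 below all wild type libraries. Of the 8658 genes under that mean, only 361 were higher and 265 lower at that unadjusted p. The shares of all genes given below include these, and so are a low background for lists of abundant genes. The median difference of all genes tested was 0.09, and 0.03 without wild type replicate 4. With RLE scaling in place of TMM that median was -0.01, with 5 genes higher and 16 lower, and the unadjusted counts were 1333 higher and 1897 lower. Upper-quartile scaling gave 2 higher and 5 lower genes.

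The number of calls differed widely between analyses. DESeq2 called 187 genes higher (0.922%) and 563 lower (2.78%). Limma voom with quality weights called 720 higher (3.55%) and 751 lower (3.7%). An edgeR fit on the 6 CT10 libraries alone tested 17383 genes and called 222 higher (1.28%) and 696 lower (4%). The 7 genes named above passed in each of these 3 analyses. Leaving out any one of the 6 libraries left 1 to 4 genes past the threshold.

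**Figure D1:**
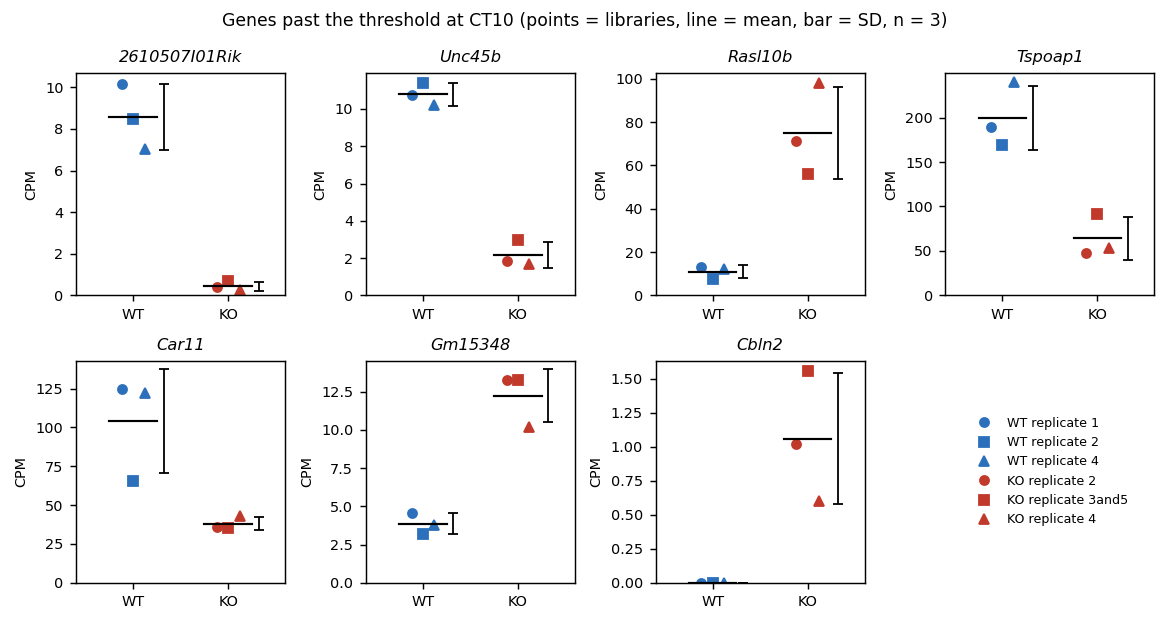
Level in CPM (each axis starts at 0) of the 7 genes past the threshold, in 3 wild type (blue) and 3 mutant (red) libraries; lines are means and bars SD. The wild type and mutant points do not overlap in any panel.

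The 2610507I01Rik transcript (ENSMUSG00000085882, GRCm38 chr11:59199836-59202385, minus strand), a noncoding processed transcript, had the smallest p. Its level was 10.2, 8.49 and 7.04 CPM in wild type and 0.4, 0.687 and 0.256 CPM in mutant libraries. It fell by 4.25 on the log2 scale (SE 0.53, Benjamini-Hochberg adjusted p = 0.000474). It stayed past the threshold when any one library was left out (adjusted p 0.000867 to 0.0197). It was low in the mutant at the other times as well, with log2 differences of -2.25, -2.98 and -2.64 at CT19, CT22 and CT1.

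Unc45b (ENSMUSG00000018845, chr11:82910550-82943403, plus strand), which encodes a chaperone of muscle myosin, was at 10.7, 11.4 and 10.2 CPM in wild type and 1.87, 2.98 and 1.67 CPM in mutant libraries. It fell by 2.31 on the log2 scale (SE 0.37, adjusted p = 0.0118), and every mutant library was under the lowest wild type library. Without mutant replicate 2 or 4 it missed the threshold (adjusted p 0.0733 and 0.143). It overlaps 2 other annotated genes, Unc45bos and Slfn5os, and whether counting used the strand is not given in the sources used here.

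Rasl10b (ENSMUSG00000020684, chr11:83409137-83421039, plus strand), a small GTPase of the Ras family, was at 13.2, 7.8 and 12.1 CPM in wild type and 71.4, 56.1 and 98 CPM in mutant libraries. The mutant libraries were all several-fold above the wild type libraries, with a log2 difference of 2.77 (SE 0.42) and an adjusted p of 0.0118. The difference was 2.34, 2.39 and 0.82 at CT19, CT22 and CT1. With 1 library left out the adjusted p ran from 0.0374 to 0.209, past the threshold only without mutant replicate 3and5.

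Tspoap1 (ENSMUSG00000034156, chr11:87760541-87785928, plus strand) encodes a protein that binds RIM proteins at synapses. It was at 189.9, 169 and 239.8 CPM in wild type and 47.8, 91.9 and 52.9 CPM in mutant libraries, a log2 difference of -1.64 (SE 0.29) and an adjusted p of 0.0406. Wild type means were 92.8 ± 16.6 CPM (SD, n = 3) at CT19, 138.2 ± 21.8 CPM at CT22, 96.4 ± 31.8 CPM at CT1 and 199.7 ± 36.2 CPM at CT10. The difference at CT10 minus that over the other times was -1.60 (SE 0.34) on the log2 scale (edgeR adjusted p = 0.0372). With 1 library left out, the adjusted p of the CT10 difference ran from 0.0116 to 0.268, past the threshold only without mutant replicate 3and5. That of the difference from the other times ran from 0.019 to 0.22, past it only without mutant replicate 3and5 or wild type replicate 2, and was 0.132 without wild type replicate 4.

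Car11 (ENSMUSG00000003273, chr7:45699843-45704682, plus strand) encodes a carbonic anhydrase-related protein. It was at 124.9, 65.4 and 122.4 CPM in wild type and 35.7, 35.5 and 43.1 CPM in mutant libraries, with a log2 difference of -1.45 (SE 0.27) and an adjusted p of 0.041. The mutant values lay close together and the wild type values were spread, replicate 2 being the lowest. Car11 ends just before the start of the clock gene Dbp (chr7:45705088-45710203, plus strand) on the same strand. Only without wild type replicate 2 did Car11 stay past the threshold (adjusted p 0.00472 to 0.268 over the 6 omissions).

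The noncoding RNA gene Gm15348 (ENSMUSG00000074469, chr8:12706944-12719127, minus strand) was at 4.58, 3.19 and 3.81 CPM in wild type and 13.3, 13.2 and 10.2 CPM in mutant libraries, a log2 difference of 1.66 (SE 0.31) with an adjusted p of 0.041. Its differences at CT19, CT22 and CT1 were 1.60, 1.25 and 1.82. Cbln2 (ENSMUSG00000024647), a secreted organiser of synapses, had 0 counts in all 3 wild type libraries and 1.02, 1.56 and 0.598 CPM in the mutant libraries (adjusted p = 0.0387). Its wild type means were 0.71, 1.41 and 1.64 CPM at CT19, CT22 and CT1. Its mutant means were 1.07, 1.00 and 0.61 CPM at those times and 1.06 CPM at CT10. A fold is not given for Cbln2, since the fitted value depends on the prior count. Neither gene passed when any one library was left out (adjusted p 0.0743 to 0.268 and 0.0639 to 0.209).

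Of these 7 genes, 4 lie within 20 Mb of Per1 on chromosome 11: 2610507I01Rik at 9.89 Mb, Unc45b at 13.8 Mb, Rasl10b at 14.3 Mb and Tspoap1 at 18.65 Mb. They are 4 of the 668 genes tested in that window, or 0.599%. Over all 20275 genes tested, 7 passed, with 0.0148% higher and 0.0197% lower. Within 20 Mb of Per2, 0 of 251 tested genes passed by edgeR. At an unadjusted p under 0.05 were 19.6% of the genes near Per1 and 45 genes near Per2 (17.9%), next to 17.9% of all genes tested. The window was set with earlier results of these data known. Alleles that stay with a targeted gene on a mixed strain background, and the loss of Per1 itself, cannot be told apart by this design.

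Per1 and Per2, the targeted genes, did not pass the test at CT10. Per1 (ENSMUSG00000020893, chr11:69095217-69109960, plus strand) was at 186, 91.1 and 115.1 CPM in wild type and 76.9, 117.7 and 92.96 CPM in mutant libraries. Per2 (ENSMUSG00000055866, chr1:91415982-91459324, minus strand) was at 158, 92.3 and 160.3 CPM in wild type and 93.1, 103 and 93.9 CPM in the mutant. The genotypes overlapped for both, with log2 differences of -0.45 (SE 0.32) and -0.50 (SE 0.31) and adjusted p-values of 0.477 and 0.396. Counts over a whole gene do not check these alleles, since transcript can still be made from a disrupted gene.

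**Figure D2:**
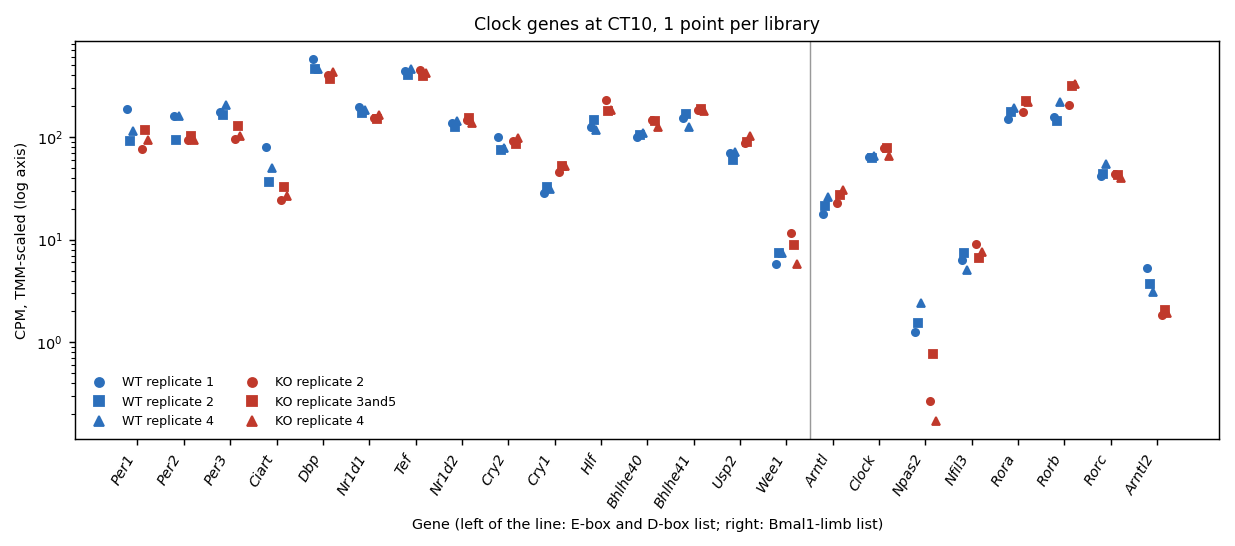
Level in CPM (log axis) of every tested clock gene of the E-box and D-box list and of the Bmal1-limb list, 1 point per library, wild type in blue and mutant in red. Ciart and Per3 lie lower and Cry1 and Hlf higher in all mutant libraries, while Per1 and Per2 overlap.

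None of the 15 genes of the E-box and D-box list passed at CT10 by edgeR. At an unadjusted p under 0.05, 5 were higher and 2 lower, against 10.7% and 7.12% of all genes. Of the 11617 genes at a mean of at least 5 CPM, 1815 were higher and 1179 lower. All mutant libraries were above all wild type libraries for 5 of the 15 and below them for 4, against 17.7% and 12.4% of all genes. DESeq2 called 0 of the 15, limma voom 2 higher and 2 lower, and the fit of the 6 libraries alone 1 higher and 2 lower. The list's median difference was 0.11, next to 0.09 for all genes, and it was -0.00156 without wild type replicate 4. At CT19, CT22 and CT1 the list's medians were 0.89, 0.97 and 0.84.

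On the low side were 4 members. Ciart (ENSMUSG00000038550), whose protein represses CLOCK and BMAL1, was at 79.9, 36.5 and 49.4 CPM in wild type and 24.6, 32.3 and 26.4 CPM in mutant libraries, a log2 difference of -0.99 (SE 0.37) with an adjusted p of 0.179. The lowest wild type library lay just above the highest mutant library. Per3 (ENSMUSG00000028957), the third Period gene, which is not targeted in these mice, was at 175, 163 and 203 CPM in wild type and 96.3, 128.8 and 101 CPM in the mutant, a log2 difference of -0.73 (SE 0.26) with an adjusted p of 0.156. Per3 lies in a region shared with Camta1, Ciart in one with C920021L13Rik, Nr1d1 in one with Thra and Dbp in one with Sphk2. Reads of these neighbours may be mixed in. Nr1d1 was at 195, 169 and 181 CPM in wild type and 153, 151 and 162 CPM in the mutant, and Dbp at 574, 462 and 458 CPM in wild type and 397, 367 and 431 CPM in the mutant. All mutant libraries of these 2 genes were below all wild type libraries, with fitted log2 differences of -0.23 and -0.32 and adjusted p-values of 0.425 and 0.431.

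On the high side were 5 members. Cry1, which encodes the repressor that partners PER, was at 28.5, 32.7 and 31.1 CPM in wild type and 45.6, 52.3 and 51.9 CPM in mutant libraries, a log2 difference of 0.70 (SE 0.24) with an adjusted p of 0.146. Hlf was at 124.7, 145 and 116.9 CPM in wild type and 226, 179 and 183 CPM in the mutant, a log2 difference of 0.61 (SE 0.20) with an adjusted p of 0.139. The mutant values of both genes lay above all wild type values. Bhlhe40, Bhlhe41 (E-box repressors DEC1 and DEC2) and Usp2 (a ubiquitin protease) had log2 differences of 0.41, 0.32 and 0.48, again without overlap. Cry2, Nr1d2, Tef and Wee1 overlapped between genotypes, with log2 differences from -0.03 to 0.36.

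Promoter sequence is shown next for Ciart, Per3 and Cry1, whose genotypes did not overlap, and for the targeted Per1, with E-boxes (CACGTG, which reads the same on both strands) or D-boxes (TTATGTAA on either strand) in capitals. The windows are RefSeq promoters on GRCm38.p6, from 250 bases before to 50 bases after a start site, written 5′ to 3′ on the gene's strand. RefSeq windows were at hand for 12 of the 15 list members. An E-box lay in a window of 5 of them and in 2349 of all 32851 windows (7.15%). Ciart carried 3 E-boxes, a number or more found in 29 windows (0.0883%). Per1 carried 1 E-box in one of its windows. Per3 carried 2 D-boxes, a motif in 308 windows (0.938%). The 4 genes were picked after the search because a window of theirs held a motif. The windows of Nr1d1, Dbp, Usp2 and Hlf, whose genotypes did not overlap at CT10 either, held neither motif. An E-box also lay in the windows of Bhlhe41, without overlap, and of Tef, with overlap. A match is a description of these letters only.
Ciart (chr3:95882179-95882478, minus strand): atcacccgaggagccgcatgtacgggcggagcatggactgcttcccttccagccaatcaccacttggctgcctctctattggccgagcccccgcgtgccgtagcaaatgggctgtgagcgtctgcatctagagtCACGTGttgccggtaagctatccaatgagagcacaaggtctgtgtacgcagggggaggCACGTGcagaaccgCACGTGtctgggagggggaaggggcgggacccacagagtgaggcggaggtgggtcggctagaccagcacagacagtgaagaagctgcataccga
Per1 (chr11:69098699-69098998, plus strand): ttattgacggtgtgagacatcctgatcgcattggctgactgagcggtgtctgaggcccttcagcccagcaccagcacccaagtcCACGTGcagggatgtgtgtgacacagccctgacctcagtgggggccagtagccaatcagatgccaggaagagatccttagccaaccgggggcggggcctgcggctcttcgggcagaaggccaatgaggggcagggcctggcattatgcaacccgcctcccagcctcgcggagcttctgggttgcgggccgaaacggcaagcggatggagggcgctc
Per3 (chr4:151044616-151044915, minus strand): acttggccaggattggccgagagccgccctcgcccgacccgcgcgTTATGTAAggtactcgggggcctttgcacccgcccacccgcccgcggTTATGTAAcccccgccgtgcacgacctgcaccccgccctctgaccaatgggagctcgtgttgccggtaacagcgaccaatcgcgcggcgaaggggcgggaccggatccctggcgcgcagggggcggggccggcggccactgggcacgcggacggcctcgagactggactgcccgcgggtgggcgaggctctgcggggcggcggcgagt
Cry1, with higher values in the mutant, carried 1 E-box as well:
Cry1 (chr10:85185005-85185304, minus strand): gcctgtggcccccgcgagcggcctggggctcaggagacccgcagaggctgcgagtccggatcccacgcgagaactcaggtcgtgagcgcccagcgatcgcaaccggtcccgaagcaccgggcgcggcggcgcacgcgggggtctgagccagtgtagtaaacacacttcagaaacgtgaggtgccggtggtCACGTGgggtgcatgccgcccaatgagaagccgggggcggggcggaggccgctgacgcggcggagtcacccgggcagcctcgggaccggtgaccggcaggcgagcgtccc

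None of the 8 genes of the Bmal1 limb passed at CT10 by edgeR. At an unadjusted p under 0.05, 1 was higher and 1 lower, against 10.7% and 7.12% of all genes. DESeq2 and the CT10-only fit called 0 and limma voom 1 higher. Arntl was at 17.8, 21.2 and 25.9 CPM in wild type and 22.8, 27.1 and 30.5 CPM in mutant libraries, a log2 difference of 0.31 (SE 0.31). Nfil3 was at 6.35, 7.37 and 5.08 CPM in wild type and 8.99, 6.64 and 7.52 CPM in the mutant, a log2 difference of 0.30 (SE 0.23). Both genes overlapped between genotypes. Npas2, a relative of CLOCK, was at 1.26, 1.55 and 2.42 CPM in wild type and 0.267, 0.779 and 0.171 CPM in mutant libraries, a log2 difference of -2.10 (SE 0.86) with an adjusted p of 0.208. Arntl2, a relative of Arntl, was at 5.28, 3.66 and 3.11 CPM in wild type and 1.87, 2.06 and 1.92 CPM in the mutant, a log2 difference of -1.04 (SE 0.56) with an adjusted p of 0.331. All mutant libraries of both genes lay below all wild type libraries. Rorb, a nuclear receptor also made in retinal neurons, was at 154, 144 and 216 CPM in wild type and 202, 310.2 and 328 CPM in the mutant, a log2 difference of 0.71 (SE 0.27) with an adjusted p of 0.184. Clock was at 63.05, 62.6 and 65.5 CPM in wild type and 78.6, 78.5 and 65.6 CPM in the mutant. Of the 16 other clock regulators tested, 0 passed by edgeR, 3 were higher and 2 lower at an unadjusted p under 0.05, DESeq2 called 1 lower and limma voom 2 in each direction. Nampt, an enzyme of NAD synthesis, had the smallest p there, at 26.6, 27.98 and 22.7 CPM in wild type and 45.9, 35.5 and 32 CPM in mutant libraries.

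Whether the genotype difference at CT10 differed from that at the other times was tested in the same edgeR fit, as the CT10 difference minus the mean of the differences at CT19, CT22 and CT1. By this test 17 genes (0.0838%) had a higher and 33 (0.163%) a lower difference at CT10. RLE scaling gave 15 and 74, and upper-quartile scaling 16 and 61. With 1 CT10 library left out, 8 to 135 genes passed, the fewest without wild type replicate 1 and the most without mutant replicate 3and5. Clock genes stood among the lower group. Of the 15 E-box and D-box genes, 7 were lower and 0 higher: Per1, Per2, Per3, Nr1d1, Dbp, Tef and Ciart.

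**Figure D3:**
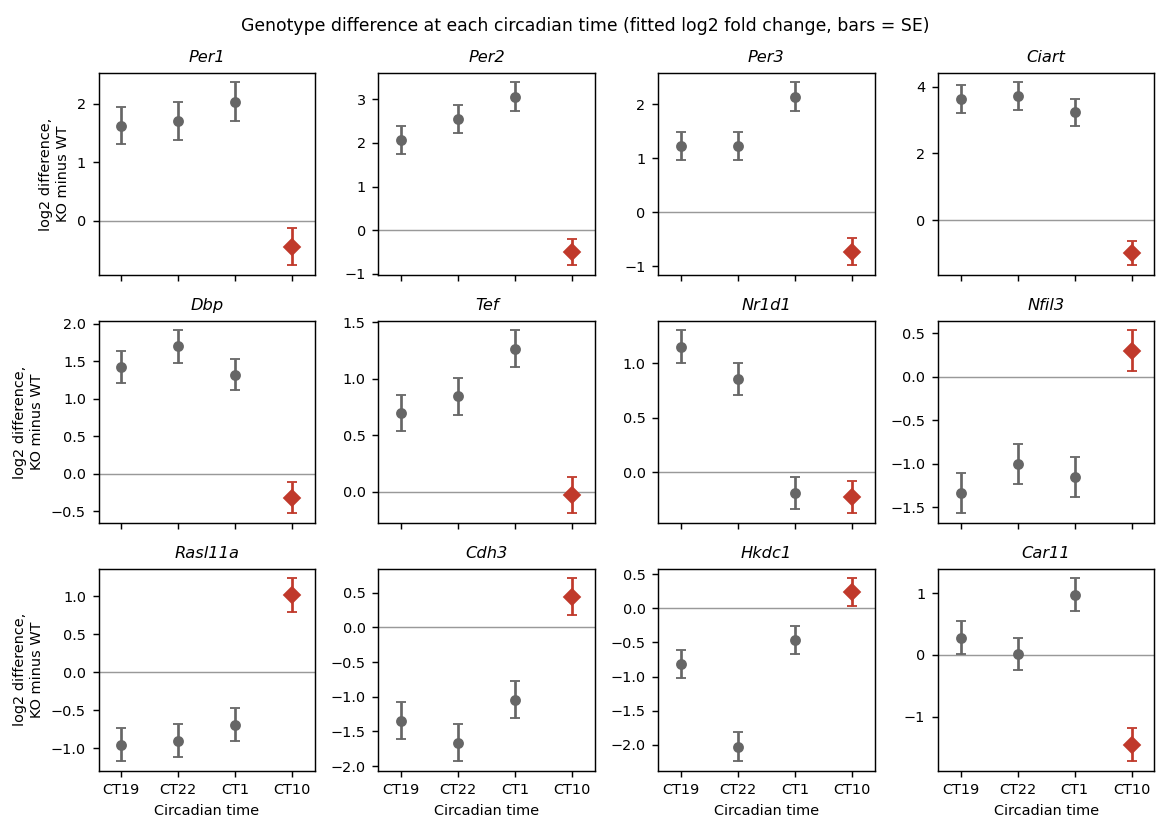
Fitted log2 difference, mutant minus wild type, at CT19, CT22, CT1 (grey circles) and CT10 (red diamonds) for 12 genes; bars are SE and each panel has its own vertical scale. Per1, Per2, Per3, Ciart and Dbp lie above 0 at the other times and below 0 at CT10, and Nfil3, Rasl11a, Cdh3 and Hkdc1 the reverse.

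Ciart had the largest such shift among the clock genes. Its wild type means were 2.9 ± 0.307 CPM (SD, n = 3) at CT19, 2.46 ± 0.773 at CT22, 4.08 ± 2.56 at CT1 and 55.3 ± 22.3 at CT10. Its mutant means were 36.2 ± 6.63, 32.4 ± 10.8, 38.6 ± 18.2 and 27.8 ± 4.03 CPM. The mutant means lay between the low and the high wild type levels at all 4 times. The shift was -4.52 (SE 0.46) on the log2 scale (edgeR adjusted p = 2.5e-05).

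Per2 went from 15.5 ± 5.9 CPM at CT1 to 136.9 ± 38.6 CPM at CT10 in wild type (SD, n = 3), and stood at 129.1 ± 22 and 96.7 ± 5.47 CPM in the mutant. Its shift was -3.05 (SE 0.37) (adjusted p = 0.000218). Per1 was shifted by -2.23 (SE 0.37) (adjusted p = 0.00988), with wild type means of 40.2 ± 5.13 CPM at CT1 and 130.6 ± 49.1 CPM at CT10 against mutant means of 165 ± 76.3 and 95.8 ± 20.5 CPM. Per3 was shifted by -2.26 (SE 0.30) (adjusted p = 0.000439). Per1 missed the threshold without mutant replicate 2 (adjusted p 0.103), mutant replicate 4 (0.0871) or wild type replicate 1 (0.0593), while Per2 and Per3 passed under each omission.

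Dbp, the D-box activator, had wild type means of 119.8 ± 22.1 (CT22) and 498 ± 65.6 CPM (CT10), next to 388 ± 80.3 and 398 ± 32.04 CPM in the mutant (SD, n = 3). Its shift was -1.80 (SE 0.24) (adjusted p = 0.000439), past the threshold under each omission. Tef, a second D-box activator, was shifted by -0.97 (SE 0.19) and Nr1d1 by -0.83 (SE 0.17), with adjusted p-values of 0.025 and 0.0333. These 2 passed only without mutant replicate 3and5 or wild type replicate 2, at adjusted p-values from 0.0153 to 0.0786 and from 0.0351 to 0.169 over the 6 omissions. Nr1d2 and Cry2 missed the threshold, with shifts of -0.77 (SE 0.17) and -0.80 (SE 0.20) and edgeR adjusted p-values of 0.0506 and 0.075. Usp2 and Wee1 were shifted by -0.42 and -0.44, with edgeR adjusted p-values of 0.408 and 0.626. Cry1, Hlf, Bhlhe40 and Bhlhe41 were shifted by 0.16, 0.05, 0.21 and -0.18, with adjusted p-values of 0.627 to 0.95. Their differences at CT10 and over the other times were not told apart by this test.

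In the opposite direction, Nfil3, the D-box repressor, had a higher difference at CT10 by 1.46 (SE 0.27) (adjusted p = 0.0199). Its wild type means were 19.2 ± 3.16, 17.3 ± 2.7, 17.9 ± 2.34 and 6.27 ± 1.15 CPM at CT19, CT22, CT1 and CT10 (SD, n = 3). Its mutant means were 7.59 ± 0.455, 8.63 ± 0.568, 8.04 ± 2.28 and 7.71 ± 1.19 CPM, near the low wild type level throughout. Arntl missed the threshold with a shift of 1.61 (SE 0.37) and an adjusted p of 0.0544. Nfil3 passed only without mutant replicate 3and5 or wild type replicate 2 (adjusted p 0.0285 to 0.169 over the 6 omissions).

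Rasl11a (ENSMUSG00000029641), a Ras-like small GTPase, showed the same direction as Nfil3 with no such dependence. It was at 6.21, 5.47 and 4.83 CPM in wild type and 10.8, 9.8 and 12.7 CPM in mutant libraries at CT10, and its difference was 1.01 at CT10 against -0.95, -0.90 and -0.69 at the other times. The shift was 1.86 (SE 0.25) (adjusted p = 0.000439), past the threshold under each omission. Cdh3, encoding the P-cadherin of epithelial junctions, had wild type means of 422 ± 59.9 (CT22) and 106 ± 26.7 CPM (CT10), next to 133.1 ± 37.5 and 145 ± 12.3 CPM in the mutant (SD, n = 3). Its shift was 1.79 (SE 0.31) (adjusted p = 0.00988). Hkdc1, a hexokinase-like gene, stood at 82.1 ± 12.8 and 23.4 ± 5.26 CPM in wild type and at 20.1 ± 4.21 and 27.6 ± 2.69 CPM in the mutant, a shift of 1.34 (SE 0.24) (adjusted p = 0.0131). Cdh3 missed the threshold without wild type replicate 1 or 4 (adjusted p 0.0593 and 0.0658), and Hkdc1 without mutant replicate 4 or wild type replicate 1 (0.0556 and 0.0876).

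Further genes passed this test. Car11 was shifted by -1.87 (SE 0.31) (adjusted p = 0.00783) and passed under each omission. Its wild type mean went from 33.8 ± 7.81 CPM at CT1 to 104 ± 33.6 CPM at CT10, and its mutant mean from 66.4 ± 14.2 to 38.1 ± 4.29 CPM (SD, n = 3). Cep152, needed for centriole duplication, Aifm3 and the phosphatase gene Ptpdc1 were shifted by -1.80, -1.29 and -1.17. Bdh1, the dehydrogenase of the ketone body beta-hydroxybutyrate, was at 18.1, 21.9 and 22.2 CPM in wild type and 33.8, 36.5 and 43.6 CPM in mutant libraries at CT10 and was shifted by 1.11 (SE 0.22). Hexim1, which holds the transcription elongation factor P-TEFb in an inactive complex with 7SK RNA, was at 28.02, 26.98 and 33.2 CPM in wild type and 48.5, 39.5 and 50.4 CPM in the mutant and was shifted by 1.01 (SE 0.19). Rnf144b, Fam69a and Klhdc8a were shifted by 1.30, 1.22 and 1.78. The adjusted p-values of the 8 genes named after Car11 were 0.0131 to 0.0368, and each missed the threshold under 3 to 5 of the 6 omissions.

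Beyond the 7 genes past the threshold, the genes of smallest p at CT10 without overlap between genotypes had adjusted p-values of 0.0607 to 0.0911. They are given as values, not as changes. On the low side, Rn7sk, the 7SK RNA itself, which has near-identical copies in the genome that can split its reads, was at 44, 35.4 and 43.9 CPM in wild type and 8.23, 14.3 and 14.7 CPM in mutant libraries, a log2 difference of -1.73 (SE 0.35). Tnxb, a tenascin of the extracellular matrix, was at 61.3, 50.3 and 54.7 CPM in wild type and 15.7, 22.3 and 23.2 CPM in the mutant. Adcyap1r1, the receptor of the neuropeptide PACAP, was at 11.9, 9.61 and 15.5 CPM in wild type and 3.51, 3.85 and 3.59 CPM in the mutant. Sfswap, a splicing regulator, was at 167, 144 and 189 CPM in wild type and 80.5, 103 and 95.4 CPM in the mutant. Grik5, a kainate receptor subunit, had a log2 difference of -0.87 (SE 0.19). Tpra1, Dido1, Phldb1, Aifm3, 4933439C10Rik and 2900052L18Rik ran from -1.70 to -0.80 on the log2 scale. Against the other times, Sfswap, Grik5, Tpra1, Dido1 and 2900052L18Rik passed the test, with shifts of -1.05, -1.08, -1.04, -0.92 and -1.96 and adjusted p-values of 0.0267 to 0.0368. Each of these 5 shifts passed only without mutant replicate 3and5 or wild type replicate 2 (adjusted p 0.0153 to 0.213 over the 6 omissions).

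On the high side, Gzmm, a granzyme protease gene, was at 34.3, 38.5 and 46.6 CPM in wild type and 126.3, 108 and 194 CPM in mutant libraries, a log2 difference of 1.84 (SE 0.35). Irgm1, an interferon-induced GTPase, was at 17.5, 21.9 and 15.6 CPM in wild type and 37.1, 53.8 and 32.2 CPM in the mutant. Eif3b, a subunit of translation initiation factor eIF3, was at 59.6, 66.5 and 77.2 CPM in wild type and 125.1, 99.8 and 126.2 CPM in the mutant, and Exoc6, of the exocyst, at 3.83, 5.86 and 3.6 CPM in wild type and 13.3, 8.66 and 10.04 CPM in the mutant. Several of the remaining genes are known from neurons. Cadps, which primes secretory vesicles, was at 1.87, 2.24 and 2.58 CPM in wild type and 11.8, 7.56 and 12.9 CPM in mutant libraries. Diras2, a Ras-like GTPase, was at 4.95, 4.18 and 7.9 CPM in wild type and 19.2, 14.98 and 28.8 CPM in the mutant, and Gprin1 at 3.27, 4.01 and 2.05 CPM in wild type and 8.59, 8.61 and 12.8 CPM in the mutant. Diras2 passed the test against the other times (shift 2.19 (SE 0.47), adjusted p = 0.0498), and with 1 library left out it passed only without mutant replicate 3and5 (adjusted p 0.0411 to 0.217, and 0.109 without wild type replicate 4).

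Several markers of the inner retina were higher in the mutant libraries at CT10. Gad1, which makes the transmitter GABA, was at 0.654, 1.98 and 3.77 CPM in wild type and 12.9, 10.8 and 14.6 CPM in mutant libraries. Its wild type mean of 2.13 CPM at CT10 lay below those at CT19, CT22 and CT1, which were 12.8, 7.71 and 15.9 CPM. Its mutant means were 12.1, 12.2 and 5.12 CPM at those times and 12.7 CPM at CT10. The log2 difference of Gad1 at CT10 was 2.56 (SE 0.52) with an adjusted p of 0.0734. Its shift against the other times was 2.92 (SE 0.59) with an adjusted p of 0.0333. That shift passed only without mutant replicate 3and5 or wild type replicate 4 (adjusted p 0.0234 to 0.15 over the 6 omissions). Grm6, the bipolar cell glutamate receptor, was at 1.07, 0.215 and 0 CPM in wild type and 4.76, 2.88 and 4.83 CPM in the mutant. Of the 22 tested genes of this list, 0 passed at CT10 by edgeR. At an unadjusted p under 0.05, 11 were higher and 0 lower, against 10.7% and 7.12% of all genes. Above all wild type libraries lay 10 of the 22 and below them 1, against 17.7% and 12.4% of all genes. Of the 22, DESeq2 called 5 higher, limma voom 4 higher, and the CT10-only fit 4 higher and 1 lower. The median was 1.70, and 1.91 without wild type replicate 4.

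**Figure D4:**
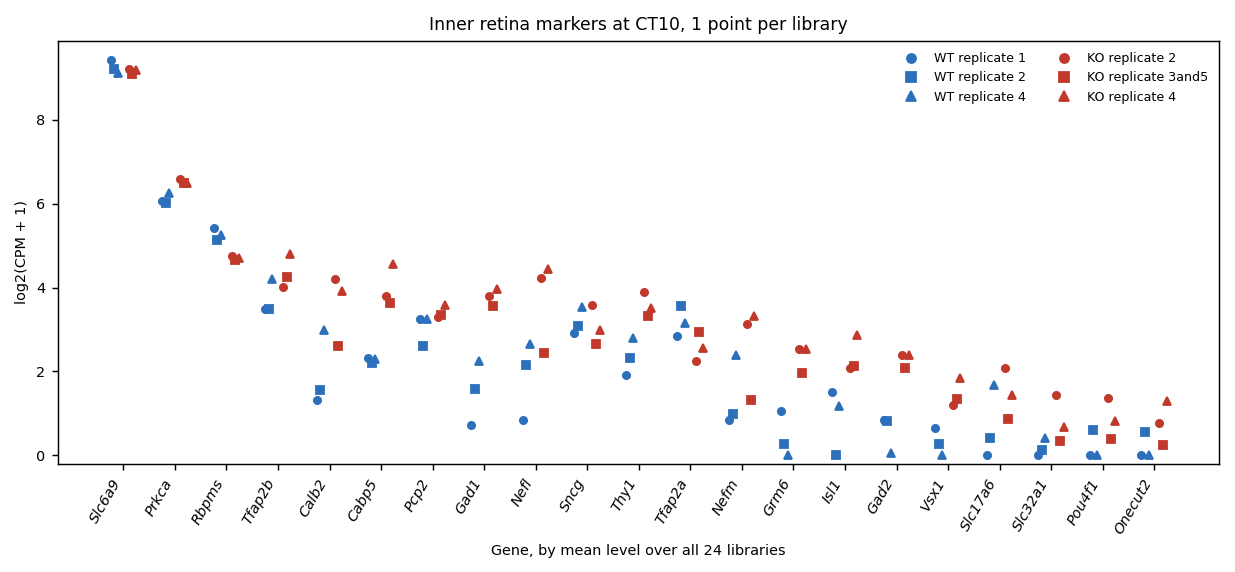
Level as log2(CPM + 1) of 21 of the 22 tested inner retina markers, 1 point per library, wild type in blue and mutant in red, ordered by mean level. Gad1 and Cabp5 lie higher in all mutant libraries, while Slc6a9, the most abundant, overlaps and Rbpms lies lower.

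The summed level of the inner retina list did not separate the genotypes, at 744 to 839.5 CPM in wild type and 771 to 887 CPM in mutant libraries. Slc6a9, a glycine transporter, made up most of that sum. The defining markers Grm6, Vsx1, Isl1, Slc32a1, Onecut1, Onecut2, Slc17a6 and Pou4f1 were at 0 in at least 1 of the 6 libraries. The mean log2(CPM + 1) of the rod, cone and inner retina markers together was 5.44 to 5.88 in wild type and 6.01 to 6.41 in mutant libraries, without overlap. Over all 24 libraries of the series it ran from 5.42 to 6.97. With that marker mean as a covariate the inner retina median was 0.67, and the differences of Gad1, Cadps, Diras2 and Gprin1 were 2.09, 1.53, 1.28 and 1.07. The mean includes the inner retina markers themselves, Gad1 among them, so smaller differences of that list are partly built in. The part of retinal RNA in these differences was not tested. Of the 7 genes past the threshold, Rasl10b, Cbln2, Unc45b and 2610507I01Rik passed with this covariate. Car11, Tspoap1 and Gm15348 did not, at adjusted p-values of 0.0691, 0.064 and 0.0503.

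Genes of outer segment handling lay mostly on the high side without any passing the test. Of the 38 phagosome and lysosome genes, 0 passed by edgeR. At an unadjusted p under 0.05, 16 were higher and 1 lower, against 10.7% and 7.12% of all genes. Above all wild type libraries lay 17 and below them 2, against 17.7% and 12.4% of all genes. Of the 11617 genes at a mean of at least 5 CPM, 2807 lay above and 1658 below them. At that unadjusted p, 1815 of the 11617 were higher and 1179 lower. DESeq2 called 1 higher, limma voom 7 higher, and the CT10-only fit 1 lower. The median was 0.43, next to 0.15 for all genes at a mean of at least 5 CPM, and 0.25 without wild type replicate 4. Atp6v1b2, a subunit of the proton pump of lysosomes, was at 204, 246 and 226 CPM in wild type and 359, 304 and 399 CPM in mutant libraries. Rab7, the GTPase of late endosomes, was at 178, 222 and 155 CPM in wild type and 303, 258 and 283 CPM in the mutant.

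The 22 autophagy genes had 0 past the threshold by edgeR, 10 higher and 0 lower at an unadjusted p under 0.05, 1 higher by DESeq2, 6 higher by limma voom and 0 in the CT10-only fit. Their median was 0.30. Of all genes, 10.7% were higher and 7.12% lower at that unadjusted p. Atg5, needed to attach LC3 to membranes, was at 14.8, 17.4 and 12.4 CPM in wild type and 30.6, 21.4 and 25.03 CPM in mutant libraries. Map1lc3b, which encodes an LC3 protein, was at 74.3, 69.9 and 59.4 CPM in wild type and 96.7, 87.02 and 107 CPM in the mutant. The 26 genes of outer segment recognition and uptake had 0 past the threshold by edgeR, 3 higher and 1 lower at an unadjusted p under 0.05, 0 by DESeq2, 1 higher by limma voom and 1 lower in the CT10-only fit. Their median was 0.30 with all libraries and 0.11 without wild type replicate 4. The share of uptake genes higher at that p was near the 10.7% of all genes. A positive difference was seen for 73.1% of the uptake genes, against 63.2% of all genes at a mean of at least 5 CPM. Rhoa, a GTPase that controls actin, was at 65.7, 71.6 and 63.7 CPM in wild type and 120.1, 81.2 and 102 CPM in the mutant, and Myo7a, the myosin that moves phagosomes and melanosomes, at 349, 286 and 363 CPM in wild type and 219, 253 and 199 CPM in the mutant. Myo7a went against the list, with all mutant values below all wild type values.

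Genes of the epithelium's retinoid, pigment and transport functions did not pass at CT10 either. The 13 visual cycle genes had 0 past the threshold by edgeR and 0 at an unadjusted p under 0.05, with 0 by DESeq2, limma voom and the CT10-only fit and a median of 0.32. Of the 16 melanin synthesis genes, 0 passed by edgeR, 3 were higher and 1 lower at an unadjusted p under 0.05, and DESeq2, limma voom and the CT10-only fit each called 1 higher. Tyr, the tyrosinase that starts melanin synthesis, was at 193, 227 and 179 CPM in wild type and 415, 335 and 290.4 CPM in mutant libraries, a log2 difference of 0.80 (SE 0.24) with an adjusted p of 0.116. Of the 32 RPE identity genes, 0 passed by edgeR. At an unadjusted p under 0.05, 5 were higher and 2 lower, against 10.7% and 7.12% of all genes. DESeq2 called 2 lower, limma voom 1 in each direction and the CT10-only fit 1 lower. Vegfa, the growth factor that maintains the choroidal vessels, was at 1253, 1046 and 1473 CPM in wild type and 759, 962 and 774 CPM in the mutant, and Trpm3, an ion channel, at 1387, 1189 and 1466 CPM in wild type and 798, 976 and 790.1 CPM in the mutant. Both lay below all wild type libraries, with log2 differences of -0.60 and -0.66. The list as a whole lay on the other side, with 24 of its 32 genes at a positive difference. Of all genes at a mean of at least 5 CPM, 63.2% had one. Of the 32, 9 lay above and 3 below all wild type libraries, against 17.7% and 12.4% of all genes. Of the 11617 genes at a mean of at least 5 CPM, 2807 lay above and 1658 below all wild type libraries. At an unadjusted p under 0.05, 1815 of them were higher and 1179 lower. The list's median was 0.41, or 0.26 without wild type replicate 4. Krt8, a keratin of simple epithelia, was at 144, 159.5 and 86.6 CPM in wild type and 242, 176 and 232 CPM in the mutant, and Aqp1, a water channel, at 68.5, 70.1 and 52.8 CPM in wild type and 95.4, 89.3 and 88.1 CPM in the mutant.

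**Figure D5:**
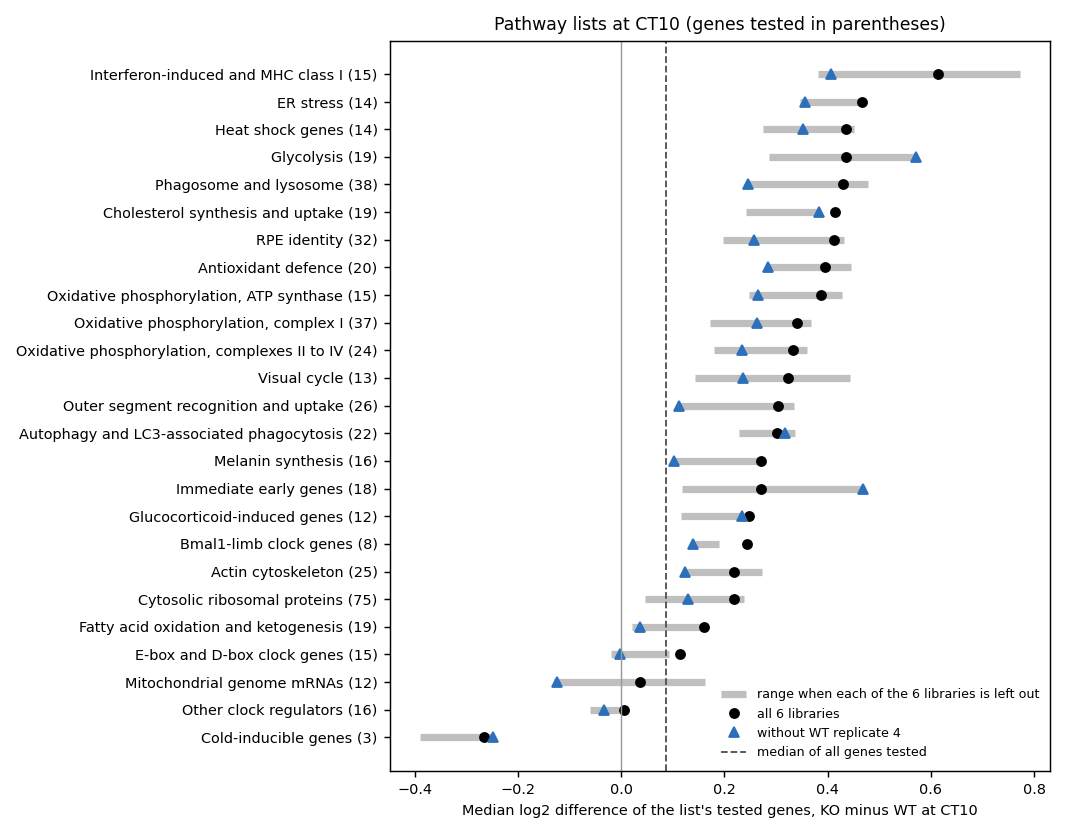
Median log2 difference at CT10 of each of the 25 pathway lists with all 6 libraries (black), without wild type replicate 4 (blue triangles) and over the omission of each library (grey bars); the dashed line is the median of all genes tested, 0.09. Most lists lie to the right of that line, and the cold-inducible list to the left of 0.

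Genes of energy metabolism also lay on the high side. All 24 tested genes of respiratory complexes II to IV and 35 of the 37 of complex I had a positive difference, with medians of 0.33 and 0.34. Over all genes tested 55.5% had a positive difference, and 63.2% of those at a mean of at least 5 CPM. The 15 ATP synthase genes had a median of 0.39, and all genes at a mean of at least 5 CPM one of 0.15. With the mean level of the retinal markers as a covariate, the medians of complexes II to IV, complex I and ATP synthase were 0.25, 0.23 and 0.26. All genes at a mean of at least 5 CPM then had one of 0.12. By edgeR 0 of these 3 lists' genes passed, while 6, 11 and 5 were higher and 0 lower at an unadjusted p under 0.05, and limma voom called 3, 4 and 1 higher. DESeq2 called 0 of them, and the CT10-only fit 1 of complex I. At an unadjusted p under 0.05, 10.7% of all genes were higher and 7.12% lower. The 12 tested mRNAs of the mitochondrial genome had a median of 0.04, and -0.12 without wild type replicate 4. Ndufa12, a complex I subunit, was at 30.6, 26.6 and 16 CPM in wild type and 49.02, 40.9 and 59.9 CPM in mutant libraries.

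Of the 19 glycolysis genes, 0 passed at CT10 by edgeR. At an unadjusted p under 0.05, 9 were higher and 1 lower, against 10.7% and 7.12% of all genes. DESeq2 called 1 lower, limma voom 6 higher and 1 lower, and the CT10-only fit 4 higher and 1 lower. Ldha, lactate dehydrogenase A, was at 256, 299 and 339.5 CPM in wild type and 571, 538 and 770.2 CPM in mutant libraries, a log2 difference of 1.07 (SE 0.36) with an adjusted p of 0.142. Pgk1 was at 62.2, 67.03 and 71.8 CPM in wild type and 128.4, 106 and 127.7 CPM in the mutant. Gapdh counts were low and opposite in direction, at 19.8, 14.5 and 15.3 CPM in wild type and 4.94, 9.48 and 6.96 CPM in the mutant, and this gene has many near-identical copies that can split its reads. The 19 cholesterol genes had a median of 0.41 and 4 higher at an unadjusted p under 0.05, with 0 past the threshold by edgeR, 1 by DESeq2, 2 by limma voom and 1 in the CT10-only fit. Pmvk, a kinase of the mevalonate pathway, was at 18.1, 19.6 and 16.5 CPM in wild type and 29.1, 30.2 and 37.4 CPM in the mutant. The 75 ribosomal protein genes had a median of 0.22 and 5 higher and 2 lower at an unadjusted p under 0.05, with 0 past the threshold by edgeR and DESeq2, 1 higher by limma voom and 1 in each direction in the CT10-only fit. That median was 0.13 without wild type replicate 4, and with the mean level of the retinal markers as a covariate it turned to -0.06. Many of them have near-identical copies.

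Stress and defence genes were among the lists of highest median. The 14 ER stress genes all had a positive difference, with a median of 0.47, 5 higher at an unadjusted p under 0.05, 0 past the threshold by edgeR and DESeq2 and 2 each by limma voom and the CT10-only fit. Hspa5, the main chaperone of the endoplasmic reticulum, was at 276, 371 and 253 CPM in wild type and 527, 505 and 490.1 CPM in mutant libraries, without overlap. The 14 heat shock genes had a median of 0.43 and the 20 antioxidant genes one of 0.39, with 0 past the threshold by edgeR, DESeq2 and the CT10-only fit and 3 each by limma voom. At an unadjusted p under 0.05, 7 heat shock genes were higher and 1 lower, and 8 antioxidant genes were higher. These counts stand next to 10.7% of all genes higher and 7.12% lower. Prdx6, a peroxiredoxin, was at 230.1, 238 and 166 CPM in wild type and 430.2, 300.3 and 354 CPM in the mutant. Of the 3 cold-inducible genes, Cirbp was at 209.5, 185 and 206 CPM in wild type and 91.6, 135.2 and 151 CPM in the mutant, a log2 difference of -0.67 (SE 0.24) with an adjusted p of 0.168, and lay below all wild type libraries. Rbm3 lay below them too, with a log2 difference of -0.27 (SE 0.18), while Rtn3 lay above them, with one of 0.59 (SE 0.29). Rtn3 was the most abundant of the 3, and their summed level was 875 to 1149 CPM in wild type and 1143 to 1497 CPM in the mutant.

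The 15 interferon-induced and MHC class I genes had a median of 0.61, or 0.41 without wild type replicate 4. At an unadjusted p under 0.05, 8 were higher, against 10.7% of all genes. None of the 15 passed by edgeR or the CT10-only fit, and DESeq2 and limma voom called 2 each. H2-D1, a class I antigen-presenting molecule, was at 73, 69.6 and 40.3 CPM in wild type and 102, 128.5 and 88 CPM in mutant libraries. Immune cell markers, 19 genes, lay on the same side, with a median of 0.64 and of 0.32 without wild type replicate 4. Their summed level was 588 to 759 CPM in wild type and 706 to 906 CPM in mutant libraries. Their part in the interferon values was not tested. Among immediate early genes, Fos was at 3.22, 2.54 and 3.15 CPM in wild type and 8.9, 7.46 and 5.72 CPM in the mutant and Jun at 16.9, 16.9 and 15.2 CPM in wild type and 29.7, 24.8 and 24.6 CPM in the mutant, and of the 18 tested 0 passed by edgeR and DESeq2, 5 were higher at an unadjusted p under 0.05, limma voom called 2 and the CT10-only fit 1.

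Over the whole transcriptome, the genotype difference varied with abundance and transcript length. Genes under 1 CPM had a median difference of -0.13 and genes of at least 100 CPM one of 0.23. Among genes of at least 5 CPM, split into 4 groups by exon length, the median was 0.28 in the shortest group and 0.19, 0.10 and 0.02 in the next 3. The share of counts on noncoding genes was 2.70% to 4.59% in mutant and 4.39% to 5.09% in wild type libraries. The part of length, of abundance and of these shares in the list medians was not tested.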

How the data were processed

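The authors deposited raw counts for 54232 Ensembl identifiers in 24 libraries. The tools named in the submitters' processing notes are HTSeq 0.11, HISAT2 2.1.0, Trimmomatic 0.32 and Cufflinks, with build GRCm38.p6. Their order, the annotation release and the strand setting are not given in the sources used here, so genes that overlap or have near-identical copies are uncertain. GENCODE symbols matched 54079 identifiers.

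Tests used edgeR 4.0.16 (R 4.3.3) with filterByExpr (minimum count 10), TMM scaling and 1 robust quasi-likelihood fit of 8 group means (16 residual degrees of freedom). The 2 tests were mutant minus wild type at CT10, and that difference minus its mean at the other 3 times. The code was tested on simulated data. Alternatives used DESeq2 1.42.0, limma 3.58.1 voom, other scalings and filters, marker covariates and the omission of each CT10 library.

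The members and the 37 gene lists were chosen with earlier results of these data known. Named are all genes of the E-box and Bmal1-limb lists, all genes past the threshold at CT10, and the 15 per direction of smallest p without overlap and with a mean of at least 5 CPM. Named too are up to 10 per direction with that mean in the second test, and up to 4 per list. Diras2, Grm6 and Cabp5 were named or described further after their values were seen. A few genes that this rule names are not reported here.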

Additional observations from a re-analysis of the deposited data

Results flagged for a closer look

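The genotype difference at CT10 differed from the mean difference at CT19, CT22 and CT1 for 29 of the genes named here, by edgeR's test of the difference itself. Among the E-box and D-box genes the CT10 difference was lower by -2.23 for Per1, -3.05 for Per2, -2.26 for Per3, -0.83 for Nr1d1, -1.8 for Dbp, -0.97 for Tef and -4.52 for Ciart, on the log2 scale. For Nfil3 it was higher by 1.46. Among the other genes on the low side the values were -1.87 for Car11, -1.6 for Tspoap1, -1.05 for Sfswap, -1.08 for Grik5, -1.04 for Tpra1, -0.92 for Dido1, -1.96 for 2900052L18Rik, -1.29 for Aifm3, -1.17 for Ptpdc1 and -1.8 for Cep152. On the high side they were 2.92 for Gad1, 2.19 for Diras2, 1.11 for Bdh1, 1.86 for Rasl11a, 1.79 for Cdh3, 1.3 for Rnf144b, 1.34 for Hkdc1, 1.01 for Hexim1, 1.22 for Fam69a and 1.78 for Klhdc8a. Cbln2, with 0 counts in wild type at CT10, had a fitted value of 8.12 that depends on the prior count. Under every alternative of this test that gave a value (17, or 16 for Cbln2) these 29 genes kept their direction, and 5 of them passed the threshold in every one: Per2, Per3, Dbp, Ciart and Rasl11a. With 3 libraries a group, no outlier test of single libraries was run within groups.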

How the results depend on the processing

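The number of genes past the threshold at CT10, 7 as reported, was 21 with RLE scaling, 750 with DESeq2, 1471 with limma voom, 999 without a filter on low counts, 31 among genes of at least 5 CPM and 918 with the CT10 libraries alone. It was 17, 61 and 822 with the retinal, choroid and immune marker covariates, and 1 to 4 with 1 library left out. Against the other times, 50 as reported, it was 89 with RLE scaling, 77 with upper-quartile scaling, 955 with DESeq2, 1125 with limma voom, 1043 without a filter and 487 among genes of at least 5 CPM. It was 104, 760 and 686 with the 3 covariates, and 8 to 135 with 1 library left out. The causes were not tested. DESeq2 gave no adjusted p for 4725 genes at CT10.

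Replicate numbers 2 and 4 occur in both genotypes, and same-numbered libraries deviated together with r of 0.073 and 0.075. The numbers therefore were not taken to pair libraries. A fit with the replicate block called 10 genes at CT10, 1 of them among the 7, and 7 genes against the other times.

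All 7 genes called at CT10 kept their direction under every alternative that tested them, and 2610507I01Rik alone passed in each. Of the 55 genes followed at CT10, 50 kept one direction throughout. With 3 libraries a group, an exact permutation test of a single gene cannot give a two-sided p below 0.1.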

Other observations

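The remaining lists held no gene past the threshold at CT10 by edgeR. Of the 25 actin cytoskeleton genes tested, 9 were higher and 1 lower at an unadjusted p under 0.05, against 10.7% and 7.12% of all genes. Of the 11617 genes at a mean of at least 5 CPM, 1815 were higher and 1179 lower. The actin list had a median difference of 0.22 (0.12 without wild type replicate 4). DESeq2 and the CT10-only fit each called 1 of its genes higher and limma voom 3. Actr3, of the Arp2/3 complex that nucleates branched actin, was at 51.1, 62.3 and 43.6 CPM in wild type and 95.1, 77.6 and 80.8 CPM in mutant libraries. Of the 19 fatty acid oxidation and ketogenesis genes, 5 were higher at an unadjusted p under 0.05, and Bdh1 was the 1 gene called by each of the DESeq2, limma voom and CT10-only analyses. Of the 12 glucocorticoid-induced genes, 2, Tsc22d3 and Ddit4, were higher at an unadjusted p under 0.05, and limma voom called 1. Tsc22d3, which encodes GILZ, was at 38.1, 37.9 and 37.2 CPM in wild type and 60.4, 58.8 and 49.7 CPM in mutant libraries.

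Among the marker lists, Schwann cell genes had a median of -0.64, mural cell genes -0.20, fibroblast genes -0.12, endothelial genes 0.06 and melanocyte genes 0.16. Rod, cone and blood genes had medians of 0.35, 0.07 and 0.04, and the Muller glia list 0.74. The melanocyte list holds pigment genes such as Tyrp1 and Dct, and the Muller glia list the visual cycle gene Rlbp1. These lists therefore do not separate such cells from the pigment epithelium itself. Glul, the glutamine synthetase of Muller glia, was at 896, 1084 and 868 CPM in wild type and 1840, 1407 and 1545 CPM in mutant libraries, without overlap. Egfl7, made by endothelium, was at 243, 151 and 184 CPM in wild type and 83.1, 113.4 and 80.5 CPM in the mutant, again without overlap but lower in the mutant. Muscle genes summed to 37.4 CPM in wild type replicate 4 and to 3.69 to 8.72 CPM in the other 5 libraries. Their median difference was -1.74 with that library and 3.57 without it. Without wild type replicate 4 the medians of the mural cell, fibroblast, endothelial, melanocyte, cone and blood lists were -0.31, -0.20, -0.11, 0.09, 0.00701 and 0.37. RLE scaling turned the endothelial, cone and blood medians below 0, to -0.04, -0.02 and -0.06.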
